A study of Mus musculus with 7 samples.

Results

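The 9 genes Ltf, Camp, Ngp, Lcn2, Chil3, Mmp8, Mmp9, Cd177 and Itgb2l, which encode proteins of the secondary and tertiary granules of neutrophils, were examined in the transcriptomes of ORP4L KI and WT mouse T-cells. They were 9 of 25033 genes in the deposited tables, were matched by gene symbol, and each had reads in all 7 libraries. These genes were picked with their read counts in ORP4L KI and WT libraries already known, so their difference between the groups, counts of calls included, is a description, and no p-value is given for it. ORP4L KI mice carried human ORP4L, a lipid-binding protein encoded by OSBP2, in the Rosa26 locus behind a stop cassette that Cre driven by the Lck promoter, active in T-cells, removed. WT mice were their littermates, and whether these carried Cre was not given in the sources used here. All mice were C57BL/6J and 15 months old, with 1 library per mouse, 4 ORP4L KI and 3 WT. The study sampled ORP4L KI mice when moribund, and isolated T-cells from blood or spleen with a kit for naive CD4+ cells, after which cells were kept in medium with IL-2 and PHA. Which tissue gave each library, and whether its cells had been cultured, was not stated.

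Neutrophils fill their granules in order as they mature in the bone marrow. Azurophil (primary) granules with Mpo and elastase form first, in promyelocytes, secondary granules with lactoferrin follow in myelocytes and metamyelocytes, and tertiary granules with gelatinase come last, in band cells. C/EBP epsilon (Cebpe) is the transcription factor that secondary granule genes require, and most of these proteins are known as products of developing granulocytes, while gelatinase B is also made by other leukocytes, activated T-cells among them.

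The libraries held 12918187 to 19665679 reads, with reads on 16020 to 16406 genes. Osbp2, whose mouse row counted 155 to 742 reads in the ORP4L KI libraries and 0 to 1 in the WT libraries, followed the labels. T-cell markers were present in every library: the 12 genes listed, among them Lck and Cd3g, summed to 1378 to 3932 CPM (read counts relative to library size, scaled by the trimmed mean of M-values) in ORP4L KI and 2397 to 3290 CPM in WT. The lowest T-cell sum was that of ORP4L KI 1, the library with the most reads on the 9 granule genes. The 12 T-cell genes included Cd8a, at 123.8 to 178.6 CPM in WT and 79.6 to 226.3 CPM in ORP4L KI. Cd4 was at 256.6 to 360.0 CPM in WT and 93.4 to 414.5 CPM in ORP4L KI. In RNA from a mixture of cells, more granule-forming cells and more of these transcripts in each such cell cannot be told apart.

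Ltf, Ngp and Camp lay close to each other on mouse chromosome 9, with 570.4 kb between Camp and Ngp and 596.3 kb between Ngp and Ltf. The bases before their transcription starts are shown because Ltf and Ngp kept nearly the same ratio in every library, described below, and because Camp alone among the 8 genes matched in the promoter table lacked the C/EBP letters searched. Chil3, whose levels followed another order in WT libraries, is shown beside them. Each sequence is the 250 bases upstream of the start from RefSeq, build GRCm38.p6, on the strand of the gene. They cover chr9:111019042-111019291 on the plus strand for Ltf, chr9:110419558-110419807 on the plus strand for Ngp, chr9:109849457-109849706 on the minus strand for Camp and chr3:106167565-106167814 on the minus strand for Chil3. Capitals mark matches to TTNNGNAA on either strand, a form of the C/EBP recognition letters.
Ltf: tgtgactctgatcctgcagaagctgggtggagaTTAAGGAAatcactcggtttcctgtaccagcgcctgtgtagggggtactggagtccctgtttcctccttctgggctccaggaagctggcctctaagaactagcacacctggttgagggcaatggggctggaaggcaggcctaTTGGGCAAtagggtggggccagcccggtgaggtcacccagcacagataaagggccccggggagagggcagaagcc
Ngp: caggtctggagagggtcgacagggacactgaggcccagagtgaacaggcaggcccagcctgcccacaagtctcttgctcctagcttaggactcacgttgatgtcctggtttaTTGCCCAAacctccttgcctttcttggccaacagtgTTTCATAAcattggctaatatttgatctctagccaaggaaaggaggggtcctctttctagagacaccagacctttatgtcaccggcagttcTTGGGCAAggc
Camp: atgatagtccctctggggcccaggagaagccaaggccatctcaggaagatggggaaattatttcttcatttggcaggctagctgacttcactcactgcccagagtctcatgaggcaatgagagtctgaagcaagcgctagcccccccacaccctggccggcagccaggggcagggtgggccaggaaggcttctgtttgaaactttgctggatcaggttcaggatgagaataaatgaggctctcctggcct
Chil3: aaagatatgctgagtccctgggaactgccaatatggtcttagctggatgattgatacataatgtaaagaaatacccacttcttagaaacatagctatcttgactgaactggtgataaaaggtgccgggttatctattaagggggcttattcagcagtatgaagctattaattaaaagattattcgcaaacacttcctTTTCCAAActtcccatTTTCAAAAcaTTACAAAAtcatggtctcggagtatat
Matches began 217 and 75 bases before the Ltf start, 138, 102 and 11 bases before the Ngp start, and 53, 37 and 27 bases before the Chil3 start. Of the 8 genes, 7 had at least 1 match, against 36.8% of all 32851 promoter windows of this length. GAGGAA, letters bound by the myeloid factor PU.1, was found on either strand in 5 of 8 (Ltf, Lcn2, Mmp8, Cd177 and Itgb2l) and in 23.3% of all windows. TATAAA, the TATA box on the gene strand, was found in Cd177 alone of the 8 and in 7.59% of all windows. The C/EBP and PU.1 letters can share bases, and a match is a description of the sequence, not of binding.

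Together the 9 genes took a far larger part of the reads in ORP4L KI than in WT libraries. Their reads made up 0.368% (exact 95% binomial interval 0.365 to 0.371), 0.195% (0.192 to 0.197) and 0.130% (0.128 to 0.132) of WT 1, 2 and 3. In ORP4L KI 1, 2, 3 and 4 they made up 6.01% (5.99 to 6.02), 0.788% (0.784 to 0.792), 2.04% (2.03 to 2.04) and 3.38% (3.37 to 3.39). These intervals cover counting error only. The mean share was 3.05% ± 2.24 (SD, n = 4) in ORP4L KI and 0.231% ± 0.123 (SD, n = 3) in WT. The groups did not overlap, and the lowest ORP4L KI share was 2.14-fold the highest WT share, but the ORP4L KI libraries themselves spanned 7.62-fold.

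**Figure D1:**
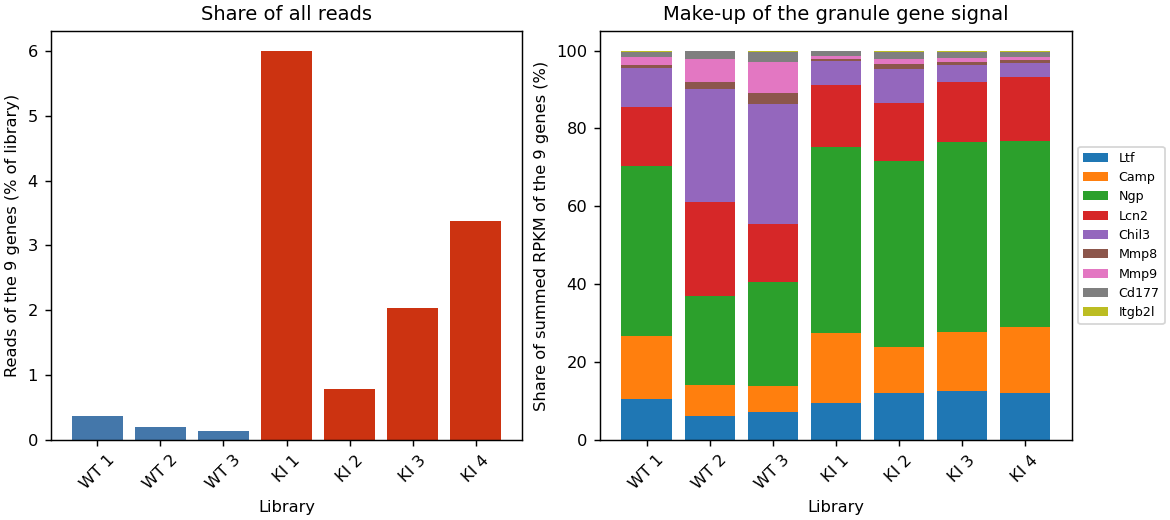
Left, the share of all reads (%) that fell on the 9 granule genes in each of the 7 libraries; right, the share (%) of their summed RPKM contributed by each gene, as stacked bars. The read share was 0.130% to 0.368% in WT and 0.788% to 6.01% in ORP4L KI, while Ngp gave 47.8% to 48.9% of the summed RPKM in all 4 ORP4L KI libraries.

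Ltf, Ngp and Camp, which encode soluble proteins of the secondary granule, varied most over the 7 libraries, by 103-, 137- and 205-fold in CPM. Ltf (lactoferrin, an iron-binding antimicrobial protein; NM_008522, chr9:111019292-111042766) was at 749.3, 228.7 and 147.8 CPM in WT 1 to 3 and at 15237, 1782, 5384 and 9583 CPM in ORP4L KI 1 to 4. Every ORP4L KI library lay above every WT library, and the fitted log2 fold change was 4.41 with an SE of 0.86. Ngp (neutrophilic granule protein, a cathelin-related protein; NM_008694, chr9:110419808-110423012) was at 1330, 365.7 and 237.1 CPM in WT and at 32526, 2985, 8908 and 16046 CPM in ORP4L KI. It was the gene with the most reads of all genes in ORP4L KI 4 and the second in ORP4L KI 1 and 3, but ranked 83, 414 and 674 in WT 1 to 3. The log2 fold change of Ngp was 4.55, SE 0.95, with no overlap of the groups. Camp (cathelicidin, the precursor of the antimicrobial peptide CRAMP; NM_009921, chr9:109847377-109849456) was at 252.9, 64.8 and 30.7 CPM in WT and at 6303, 372.6, 1425 and 2913 CPM in ORP4L KI. Its log2 fold change was 4.57 with an SE of 1.08. Its ORP4L KI libraries also spread furthest, by 16.9-fold, and the lowest of them was only 1.47-fold the highest WT library.

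Lcn2 (lipocalin 2, which sequesters bacterial siderophores; NM_008491, chr2:32384637-32387739) was at 338.5, 281.1 and 96.1 CPM in WT and at 8038, 679.7, 2081 and 4051 CPM in ORP4L KI. The groups did not overlap, with a log2 fold change of 3.96, SE 0.84. Chil3 (the chitinase-like protein Ym1; NM_009892, chr3:106147554-106167564) was at 404.1, 609.0 and 362.2 CPM in WT and at 5439, 722.3, 1029 and 1594 CPM in ORP4L KI. Here ORP4L KI 2 was only 1.19-fold above WT 2, the highest WT library, and the log2 fold change was 2.26, SE 0.67. Of the 50-base windows of the Chil3 transcript, 29.4% occurred also in transcripts of other genes, mostly Chil4, so part of its reads could belong to them. Chil4 itself was counted at 0 in the 3 WT libraries and at 8, 0, 0 and 2 reads in ORP4L KI 1 to 4.

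Among the granule proteases, Mmp8 (neutrophil collagenase, of secondary granules; NM_008611, chr9:7558429-7568486) was at 44.2, 65.0 and 55.8 CPM in WT and at 874.1, 158.4, 321.8 and 450.4 CPM in ORP4L KI. WT libraries were close together, at 55.0 ± 10.4 CPM (SD, n = 3), all ORP4L KI libraries lay above them, and the log2 fold change was 3.04, SE 0.53. Mmp9 (gelatinase B, the marker of tertiary granules; NM_013599, chr2:164940326-164955850) was at 160.1, 256.4 and 191.6 CPM in WT and at 1237, 229.4, 495.8 and 775.4 CPM in ORP4L KI. It was the 1 gene of the 9 whose groups overlapped, ORP4L KI 2 lying below WT 2, and it had the smallest fold change over all 7 libraries, 1.75 on the log2 scale with an SE of 0.50.

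Cd177 and Itgb2l encode proteins of the granule and cell membrane. Cd177 (a surface glycoprotein that presents proteinase 3 on neutrophils; NM_026862, chr7:24743983-24760334) was at 106.2, 70.8 and 53.9 CPM in WT and at 1924, 245.3, 637.8 and 1058 CPM in ORP4L KI. The groups did not overlap, with a log2 fold change of 3.65, SE 0.66. Of its 50-base windows 5.74% occurred in other transcripts, mostly of Gm4763, and its counts are uncertain to that extent; Ltf, Camp, Ngp, Lcn2, Mmp8, Mmp9 and Itgb2l shared none. Itgb2l (an integrin beta 2-like subunit; NM_008405, chr16:96422288-96443664) was at 16.2, 5.53 and 5.69 CPM in WT and at 313.6, 58.0, 153.1 and 238.3 CPM in ORP4L KI. These rested on 81 to 261 reads in WT and 1058 to 5152 reads in ORP4L KI. Its log2 fold change was 4.38, SE 0.66, and its lowest ORP4L KI library stood 3.57-fold above its highest WT library, the widest gap among the 9 genes.

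**Figure D2:**
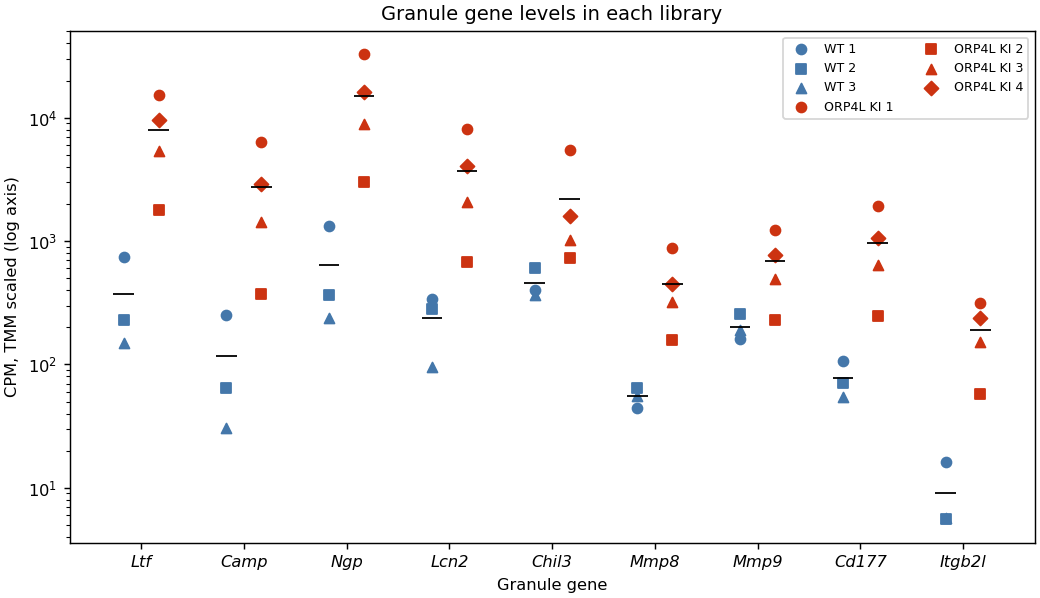
Levels of the 9 granule genes in CPM scaled by the trimmed mean of M-values, on a log axis, with 1 point per library (3 WT, 4 ORP4L KI). ORP4L KI libraries lie above WT libraries for 8 genes, from Itgb2l at 5.53 to 313.6 CPM up to Ngp at 237.1 to 32526 CPM, and overlap with them for Mmp9.

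Of the 9 genes, 9 were called higher in ORP4L KI (edgeR quasi-likelihood test with p under 0.01 before adjustment, log2 fold change over 1), beside 2.38% of all 13462 genes tested, and 0 were called lower, beside 2.3%. Groups did not overlap for 8 of 9, beside 6.43% of all genes with every ORP4L KI library above every WT library. Since the genes were picked on these same libraries, nothing further is read from the counts. Their median log2 fold change was 3.96, with a range of 1.75 to 4.57, and that of all genes tested was 0.01. The call of Mmp9 was lost without any 1 of WT 1, WT 2, WT 3, ORP4L KI 1 or ORP4L KI 4, where its log2 fold change was 1.30 to 1.96. That of Chil3 was lost without any 1 of WT 1, WT 2, WT 3 or ORP4L KI 4, at 2.12 to 2.52. Without ORP4L KI 1, 8 of the 9 were called higher, beside 2.06% of all genes, their median log2 fold change was 3.25, and that of Camp was 3.76, of Ngp 3.86, of Lcn2 3.25 and of Chil3 1.28. Without WT 1, log2 fold changes were 5.41 for Ltf, 5.85 for Camp, 5.65 for Ngp and 5.08 for Itgb2l. The order of the genes by fold change therefore did not hold across these fits.

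The libraries were ranked the same way by every gene in the ORP4L KI group. ORP4L KI 1 was highest, followed by 4, 3 and 2, for 9 of 9 genes, with 5.39-fold (Mmp9) to 16.9-fold (Camp) between the highest and the lowest library. In WT the order was not shared. WT 1 was highest for Ltf, Camp, Ngp, Lcn2, Cd177 and Itgb2l, while WT 2 was highest for Chil3, Mmp8 and Mmp9. The last 3 genes also varied least among WT libraries, by 1.68-, 1.47- and 1.60-fold, where Camp varied by 8.24-fold.

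Levels of different genes were compared by RPKM (reads per kilobase of transcript, relative to all mapped reads), as deposited. Ngp had the highest RPKM of the 9 genes in WT 1 and in all 4 ORP4L KI libraries, at 2797 to 23357 RPKM in ORP4L KI, and Chil3 was highest in WT 2 and WT 3, at 394.9 and 259.1 RPKM. Camp, Lcn2 and Ltf were below Ngp in the ORP4L KI libraries, while in WT 2 Lcn2, at 328.9 RPKM, was above Ngp at 314.3 RPKM. Lcn2 was above Ltf by RPKM in 7 of 7 libraries, whereas Camp was above Lcn2 in 3 of 7 and Ltf above Camp in 2 of 7, so that the place of Camp among them did not hold across libraries. Chil3 came next in ORP4L KI and was above Mmp8, Mmp9 and Cd177 in 7 of 7 libraries. The membrane protein gene Cd177 was above Mmp9 by RPKM in 4 of 4 ORP4L KI libraries and below it in 3 of 3 WT libraries. Itgb2l was lowest in 7 of 7 libraries, at 2.11 to 6.70 RPKM in WT and 24.1 to 99.9 RPKM in ORP4L KI.

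Ngp contributed 47.8%, 48.0%, 48.9% and 47.9% of the summed RPKM of the 9 genes in ORP4L KI 1 to 4, so its share stayed within a narrow range while the read share of the whole set spanned 7.62-fold. In WT 1 to 3 it contributed 43.8%, 23.0% and 26.8%. Chil3 gave 10.04%, 28.9% and 30.9% in the same WT libraries and 3.59% to 8.76% in ORP4L KI. For Mmp9 the share was 1.93%, 5.91% and 7.91% in WT and 0.664% to 1.35% in ORP4L KI. WT 1 thus had a make-up nearer to the ORP4L KI libraries than WT 2 and WT 3 did for Ngp, Chil3 and Mmp9.

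Ratios within a library do not depend on its depth or scaling. The RPKM ratio of Ltf to Ngp was 0.238 to 0.265 in WT and 0.198 to 0.256 in ORP4L KI, a 1.33-fold range over all 7 libraries, although Ngp itself varied by 137-fold in CPM. It was followed by Camp to Ngp, at 0.242 to 0.376 with a 1.55-fold range, and Ltf to Itgb2l, at 24.8 to 46.4 with a 1.87-fold range. Chil3 and Mmp9 kept a 2.33-fold range between them, at 3.90 to 9.07. The widest ranges were 31.8-fold for Camp to Mmp9, 21.6-fold for Camp to Chil3 and 21.3-fold for Ngp to Mmp9.

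Set against Mmp9, the tertiary granule gene, the ratio of Mmp8 was 0.357, 0.328 and 0.377 in WT and 0.915, 0.894, 0.840 and 0.752 in ORP4L KI. The ratios of the groups did not overlap and hardly varied inside each group. The ratio of Ltf to Mmp9 was 5.42, 1.03 and 0.893 in WT and 14.3, 8.99, 12.6 and 14.3 in ORP4L KI, also without overlap. Among the other granule genes, only the ratio of Chil3 to Mmp9 overlapped between the groups. Set against Mpo, the myeloperoxidase gene of azurophil granules, Ltf gave ratios of 5.38, 8.55 and 7.79 in WT and 5.38, 4.38, 8.63 and 9.83 in ORP4L KI. Ltf to Mpo therefore overlapped between the groups within a 2.24-fold range, as did Ngp to Mpo at 17.3 to 38.9. Ratios of Camp, Lcn2, Mmp8, Cd177 and Itgb2l to Mpo overlapped too. Chil3 to Mpo was 5.17, 40.6 and 34.0 in WT and 2.91 to 3.42 in ORP4L KI, and Mmp9 to Mpo was 0.993, 8.28 and 8.72 in WT and 0.377 to 0.687 in ORP4L KI. Both were lower in every ORP4L KI library than in any WT library, and WT 1 lay nearest to the ORP4L KI libraries.

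**Figure D3:**
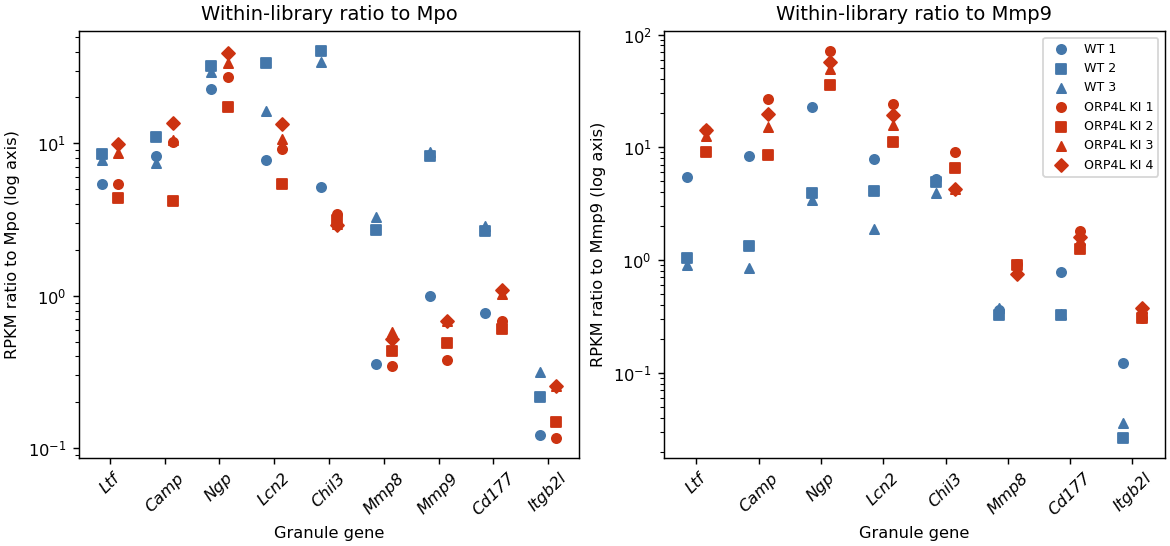
RPKM ratios of granule genes to Mmp9 and to Mpo within each library, on log axes, with 1 point per library. Ratios to Mpo overlap between WT and ORP4L KI for Ltf, Camp, Ngp, Lcn2, Mmp8, Cd177 and Itgb2l, and separate for Chil3 and Mmp9. Ratios to Mmp9 separate for the other granule genes except Chil3. The ratio of Mmp8 to Mmp9 sits at 0.328 to 0.377 in WT and 0.752 to 0.915 in ORP4L KI.

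Other genes of these granules and of neighbouring stages were taken from lists chosen with earlier results of these data known. Their calls and p-values in the same fit are therefore no independent evidence. Of all 13462 genes tested in this fit, 2.38% were called higher and 2.3% lower. An unadjusted p under 0.05 (edgeR quasi-likelihood test) was reached by 1845 of them. Of 19 other secondary and tertiary granule genes 17 were tested, 5 were called higher and 0 lower in ORP4L KI, and 15 had a positive log2 fold change, with a median of 1.25. The 5 were Pglyrp1 (a peptidoglycan recognition protein; 2.99 ± 0.85 (SE) on the log2 scale), Olfm4 (olfactomedin 4, found in a subset of neutrophils; 2.61 ± 0.59), Mmp25 (a membrane-anchored metalloprotease; 2.04 ± 0.41), Fpr2 (a formyl peptide receptor; 2.66 ± 0.73) and Chil1 (a chitinase-like protein; 2.05 ± 0.60). Their adjusted p by the edgeR quasi-likelihood test was 0.0881 for Olfm4, 0.0686 for Mmp25 and 0.139 to 0.152 for the other 3. Lyz2 (lysozyme, shared with macrophages) had a log2 fold change of 0.27, SE 0.44, and the other 11 genes were not called. At an adjusted p under 0.05 the edgeR quasi-likelihood test called 0 of 17 (11 at an unadjusted p under 0.05), beside 0.0223% of all genes, and the DESeq2 Wald test 7, beside 5.82%. The summed level of the list, 3724 to 17608 CPM in ORP4L KI and 4082 to 6755 CPM in WT, overlapped between the groups. The count of 5 was 2 without WT 1, 2 without WT 3, 3 without ORP4L KI 4 and 10 without ORP4L KI 2, and the median was 0.56 without ORP4L KI 1.

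Of 8 azurophil granule genes, 6 were called higher (Mpo, Elane, Prtn3, Ctsg, Prss57 and Ms4a3), beside 2.38% of all genes tested. None was called lower, beside 2.3%, and the list median was 4.40. Mpo had a log2 fold change of 4.29, SE 0.95, and the serine protease genes Elane and Prtn3 had 4.50 ± 1.11 (SE) and 4.72 ± 1.06. Ctsc and Cd63, at -0.28 and 2.04, were not called. The median was 5.71 without WT 1 and 3.42 without ORP4L KI 1. The list summed to 900 to 6661 CPM in ORP4L KI and 260 to 444 CPM in WT. At an adjusted p under 0.05 the edgeR quasi-likelihood test called 0 of the 8, beside 0.0223% of all genes, and the DESeq2 Wald test 7, beside 5.82%. At an unadjusted p under 0.05 the edgeR test gave 7, beside 1845 of all 13462 genes.

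Genes of mature neutrophils went in both directions. Of 9 tested, S100a8, S100a9, Ly6g and Retnlg were called higher, beside 2.38% of all genes tested, and Il1b lower, beside 2.3%. The list median was 0.96. Ly6g, an antigen of the Gr-1 antibody, changed by 3.90 ± 0.76 (SE) on the log2 scale. S100a8, a calcium-binding alarmin, changed by 4.12 ± 1.09, and the cytokine gene Il1b by -1.36 ± 0.39. By flow cytometry, which measures protein, the paper described the Gr-1+ granulocyte count of morbid ORP4L KI mice as normal. That measurement was made on peripheral blood freed of red cells and shown as percentages of cells. The libraries here came from isolated T-cells, so the samples and the measure both differ. Csf3r, the receptor for granulocyte colony-stimulating factor, was at -0.99 ± 0.38 and was not called. The edgeR quasi-likelihood test called 0 of the 9 at an adjusted p under 0.05, beside 0.0223% of all genes, and the DESeq2 Wald test 5, beside 5.82%. At an unadjusted p under 0.05 the edgeR test gave 6, beside 1845 of all 13462 genes. The count of 5 called was 3 without WT 1 and 1 without WT 3.

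Among 6 granulocyte transcription factors, Cebpe was the 1 gene called, and it was higher, beside 2.38% of all genes tested. Its mean in WT was 3.45 ± 2.80 CPM (SD, n = 3) and in ORP4L KI 75.4 ± 79.4 CPM (SD, n = 4), with a log2 fold change of 4.44, SE 0.94, and an adjusted p of 0.0766 (edgeR quasi-likelihood test). Cebpa, Cebpb, Cebpd, Gfi1 and Spi1, at 0.38, 0.42, 1.16, 0.37 and -0.09, were not called. Cebpe followed the same order of ORP4L KI libraries as the granule genes, at 191.9, 17.03, 36.0 and 56.5 CPM in ORP4L KI 1 to 4. Without ORP4L KI 2 the number of factors called was 2.

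**Figure D4:**
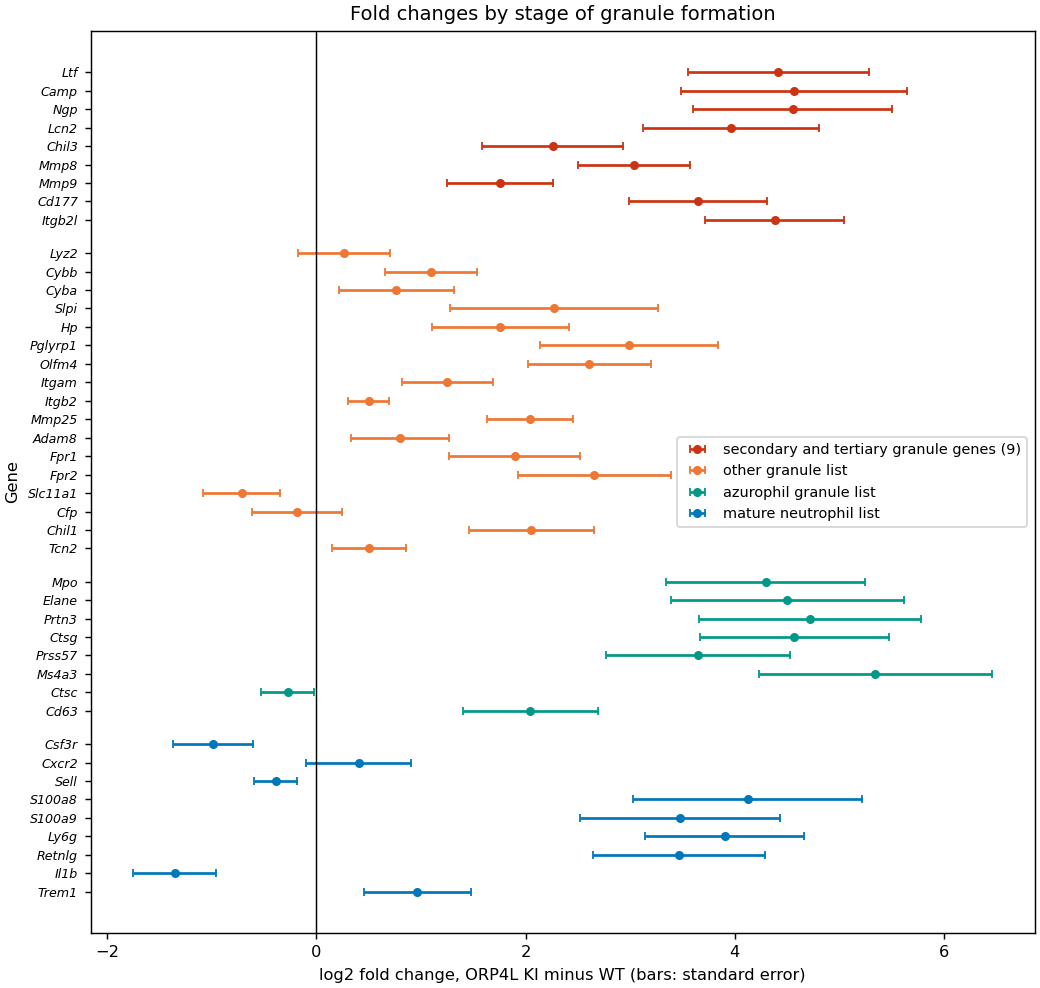
Fitted log2 fold changes (ORP4L KI minus WT, bars give the standard error) of the 9 secondary and tertiary granule genes and of the genes in the other neutrophil lists. The 9 genes lie at 1.75 to 4.57, beside list medians of 4.40 for azurophil genes, 1.25 for other granule genes and 0.96 for mature neutrophil genes.

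Close relatives of the 9 genes and partners of their proteins gave few calls. Of 6 paralogs tested 0 were called higher, beside 2.38% of all genes tested, and 1 lower, beside 2.3%. That gene was Mmp12 (macrophage elastase), at -2.10 ± 0.54 (SE) on the log2 scale. Its adjusted p was 0.117 (edgeR quasi-likelihood test), and the call was lost without WT 1 or without WT 2. Trf, the serum transferrin gene related to Ltf, was at -0.90 ± 0.36 and was not called. Of 5 partners tested 0 were called by the edgeR quasi-likelihood test. At its unadjusted p under 0.05 were 3, beside 1845 of all 13462 genes. In the DESeq2 Wald test 1 passed an adjusted p under 0.05, beside 5.82% of all genes. Slc22a17, a lipocalin 2 receptor, was at -0.11, Lrp1, which clears lactoferrin and Mmp9, at -0.96, Pecam1, which binds Cd177, at -0.54, and the inhibitors Timp2 and Timp3 at 0.53 and 0.07. Without ORP4L KI 1, and without WT 1, 1 partner was called lower.

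The genomic neighbours of the granule genes did not share their direction as a group. Within 100 kb of the 9 genes 29 other genes were tested, with 1 called higher (3.45%, beside 2.38% of all genes), 3 called lower (10.3%, beside 2.3%) and a median log2 fold change of -0.14. The gene called higher was Ceacam10, beside Cd177, at 3.13. Kif9 beside Ngp was at -1.71, and Pltp and Cd40 beside Mmp9 were at -1.36 and -1.18.

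The genes outside the set whose levels most resembled it were found by the Pearson correlation of log2(CPM + 0.5) with the mean standardised pattern of the 9 genes over the 7 libraries, among 12607 genes with a mean of at least 1 CPM. They were Ly6g (r = 0.998), Orm1 (0.998), Lhfpl2 (0.997), Dach1 (0.996), Ckap4 (0.995), B230208H11Rik (0.994), Adpgk, Lbp, Sept5 and Tuba4a (each 0.993). The 7 points fall into the WT and ORP4L KI groups and share their libraries, so these values describe likeness only. Orm1 (alpha-1-acid glycoprotein) was at 0.702 to 2.42 CPM in WT and 8.49 to 109 CPM in ORP4L KI, and Lbp (lipopolysaccharide-binding protein) at 1.40 to 5.47 and 13.7 to 124.3 CPM.

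Markers of other cells also differed between the libraries. Their counts stand beside 2.38% of all genes tested called higher and 2.3% called lower. Of 12 T-cell genes 0 were called by the edgeR quasi-likelihood test, with a median log2 fold change of 0.08, and likewise 0 of 6 B-cell genes (0 in either list at an unadjusted p under 0.05 or by the DESeq2 Wald test), with sums of 181 to 541 CPM in ORP4L KI and 298 to 524 CPM in WT. Of 11 monocyte and macrophage genes, Ly6c2 was called higher and Csf1r lower, 10 had a negative log2 fold change and the list median was -0.83. That list summed to 750 to 1780 CPM in ORP4L KI and 837 to 1300 CPM in WT, and without Ly6c2, left out after its values were seen, to 335 to 530.2 CPM in ORP4L KI and 592 to 945 CPM in WT. Of 6 eosinophil and basophil genes tested, Prg2 and Epx, both eosinophil granule protein genes, were called higher, and the list summed to 70.5 to 867 CPM in ORP4L KI and 15.7 to 44.7 CPM in WT. Of 10 cell cycle genes, Mki67, Top2a and Rrm2 were called higher, with sums of 531 to 1336 CPM in ORP4L KI and 212 to 404 CPM in WT. All 10 had a positive log2 fold change, with a median of 1.34. At an unadjusted p under 0.05 (edgeR quasi-likelihood test) were 10 cell cycle, 6 monocyte and macrophage and 4 eosinophil and basophil genes. Beside them stood 1845 of all 13462 genes tested. The DESeq2 Wald test gave 5, 3 and 3 of these lists at an adjusted p under 0.05, beside 5.82% of all genes. Leaving out single libraries moved the cell cycle count between 0 and 8 and the eosinophil and basophil count between 0 and 4. None of the listed genes was at 0 in all libraries, and their part in the values of the 9 granule genes was not tested.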

How the data were processed

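RNA from T-cells of 4 ORP4L KI and 3 WT mice was sequenced (Trizol, VAHTS mRNA-seq V3 kit, NovaSeq). Per the methods, the authors trimmed adapters, dropped short reads and mapped with FANSe3 to mouse mRNA sequences; per the labels the build was mm10. The version of the mapper and its handling of reads shared between genes were not given in the sources used here. The deposited tables give read counts and RPKM per gene, with splice variants merged and RPKM set by the longest transcript. The counts are raw, and depth was 12918187 to 19665679 reads per library.

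The 9 granule genes and all gene lists were chosen with earlier results of these data known. Counts were fitted with edgeR 4.0.16 in R 4.3.3 (filterByExpr, trimmed mean of M-values, quasi-likelihood test, Benjamini-Hochberg adjustment) over all 7 libraries and 13462 genes, after a test on simulated data with 200 changed genes. A call is an unadjusted p under 0.01 with a log2 fold change above 1 in size. DESeq2 1.42.0, other scalings, other filters, a replicate block and leaving out each library were alternatives. Levels between genes and ratios used the deposited RPKM. Named genes were the 9 genes, those needed to describe each list (at most 5 by mean CPM unless a count of 5 or fewer was spelled out), paralogs and partners, and the 10 genes most like the set. Ctsg, Prss57 and Ms4a3 and the called neighbours of the 9 genes were named after their values were seen. Promoter windows came from RefSeq, shared 50-base windows from GENCODE transcripts. The sources do not tie libraries to separate litters or isolation days, so p-values measure the spread between these 7 mice. No pair of libraries of the same group agreed within sampling noise.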

Additional observations from a re-analysis of the deposited data

Results flagged for a closer look

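In groups of 4 libraries, the gap of the highest or lowest library to its nearest neighbour was compared with the range of the group (Dixon's 95% critical value). Of 69 groups tested 7 passed, where chance gives about 3.45, and none was one of the 9 granule genes. ORP4L KI 1, the library highest for all 9 granule genes, stood apart in 6 of them. The summed cell cycle list was at 1336 CPM in ORP4L KI 1 and at 531 to 555 CPM in the other 3 ORP4L KI libraries. Slpi, a protease inhibitor of granules, was at 2119 CPM there and at 82.6 to 341 CPM in the others. Prtn3 was at 1399 CPM against 119 to 294 CPM. Ms4a3, a gene of granulocyte precursors, was at 355 CPM against 25.9 to 71.8 CPM. S100a8 reached 29058 CPM against 1048 to 5572 CPM. Lrp1 was at 79.2 CPM against 55.2 to 59.1 CPM. Timp3 stood apart in ORP4L KI 3 instead, at 5.86 CPM against 2.52 to 3.05 CPM.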

How the results depend on the processing

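The direction of all 9 granule genes was kept under every alternative run, and their median log2 fold change of 3.96 stayed between 3.25 and 4.30 without single libraries and was 3.52 with the replicate block. The number of the 9 called was 7 to 9 without single libraries and, at an adjusted p under 0.05 with edgeR, 0 with the settings of the report, 1 with upper-quartile scaling, 4 with total counts, 6 without a filter, 5 with the block and 8 without ORP4L KI 2 (9 with DESeq2), which is no independent evidence since the genes were picked on these libraries. Over all genes the count of 630 ranged from 328 (without WT 2) to 805 without single libraries and was 3 at an adjusted p under 0.05, where it was 44 with upper-quartile scaling, 113 with total counts, 176 without a filter, 48 with the block, 342 without ORP4L KI 2 and 784 with DESeq2. The other granule list, with 5 called, gave 8 with the DESeq2 Wald test, 3 with the replicate block, 3 in the same 6 libraries without the block (chosen after seeing the data), 0 at an adjusted p under 0.05, and 2 to 10 without single libraries. The azurophil list, with 6 called, gave 4 to 7 without single libraries, and the mature neutrophil list, with 5 called, gave 3 with the replicate block and 1 to 6 without single libraries. Both gave 0 at an adjusted p under 0.05, where without ORP4L KI 2 they gave 7 and 4, and the azurophil list gave 6 with the block and 4 without a filter. The cause of these differences was not tested.

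Same-numbered libraries deviated from their group means with correlations of 0.171, -0.581 and 0.0292. So few values cannot decide whether the replicate numbers pair the libraries. With the block, which leaves out ORP4L KI 4, 7 of 9 granule genes and 466 genes in all were called, and without it in the same 6 libraries 7 and 442. At an adjusted p under 0.05 (edgeR quasi-likelihood test) the block gave 5 granule genes and 48 genes in all. The same 6 libraries without it gave 0 and 0. Scaling by total counts alone took the median over all genes from 0.01 to -0.13 (log2) and the share of calls that were higher from 50.8% to 40.3%, and the 9 granule genes stayed higher, the lowest at 1.54. With 3 and 4 mice per group, the spread among libraries within the groups, WT as well as ORP4L KI, limits the precision of the fold changes more than read depth does.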
